A study of Mus musculus with 5 samples.

Results

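The genes described here belong to the unfolded protein response and the integrated stress response, measured in HL-1 heart muscle cells and in the microvesicles that these cells release. HL-1 cells are an immortal line from mouse atrial muscle. The members were a list of 10 named genes, and every probe carrying one of their symbols in the platform annotation was taken. Of the 10 genes, 9 had probes, 13 in all, out of 25697 probes and 16593 named genes on the array. Sdf2l1 was not analysed here. All 5 arrays of the study were used. They comprise 2 arrays of RNA from HL-1 cells, 2 arrays of RNA from HL-1 microvesicles and 1 array of microvesicle DNA, whose fragments were given a poly-T tail and then converted to labelled cRNA. Cultures were grown in Claycomb medium, and the labels name no treatment, so no agent that causes endoplasmic reticulum (ER) stress was compared. The sources used here do not give how vesicles were isolated, or whether replicates came from separate cultures. P-values therefore measure only how far these arrays spread, which may be technical.

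When unfolded proteins collect in the ER, 3 sensors in its membrane respond. IRE1 splices the Xbp1 transcript so that it encodes an active transcription factor, ATF6 is cut to release its own factor, and PERK phosphorylates the initiation factor eIF2. Phosphorylated eIF2 slows most translation but favours that of Atf4, and other kinases that sense amino acid lack, haem lack or viral RNA reach ATF4 by the same route, which is called the integrated stress response. ATF4 then raises Ddit3, Trib3 and Asns, while XBP1 and ATF6 raise chaperones, disulphide isomerases and the machinery that degrades misfolded ER proteins. In heart muscle these pathways are known to respond to ischaemia, pressure load and protein misfolding.

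The factors at the end of these pathways bind short promoter elements, and the promoters of members with such an element and with signal on any array are shown here so that the genes can be seen beside their values. The window runs from 250 bases before to 50 bases after each gene's start, from RefSeq, and all 10 listed genes had one. The 4 motifs searched, on both strands, were the ER stress response element (CCAAT and CCACG, 9 bases apart), its shorter form ERSE-II (ATTGG and CCACG, 1 base apart), the core of the unfolded protein response element (TGACGTGG) and the C/EBP-ATF response element (TGATGNAA), the last bound by ATF4 dimers. No match overlapped another. Capitals mark the matches.
Herpud1 promoter, GRCm38.p6 chr8:94386179-94386478, plus strand: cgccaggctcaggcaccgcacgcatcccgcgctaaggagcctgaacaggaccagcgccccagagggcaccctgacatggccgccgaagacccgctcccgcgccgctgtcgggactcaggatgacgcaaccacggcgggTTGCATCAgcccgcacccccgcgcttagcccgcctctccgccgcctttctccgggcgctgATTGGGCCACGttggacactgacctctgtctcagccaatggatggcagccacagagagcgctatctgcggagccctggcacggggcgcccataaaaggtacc
Asns promoter, GRCm38.p6 chr6:7693160-7693459, minus strand: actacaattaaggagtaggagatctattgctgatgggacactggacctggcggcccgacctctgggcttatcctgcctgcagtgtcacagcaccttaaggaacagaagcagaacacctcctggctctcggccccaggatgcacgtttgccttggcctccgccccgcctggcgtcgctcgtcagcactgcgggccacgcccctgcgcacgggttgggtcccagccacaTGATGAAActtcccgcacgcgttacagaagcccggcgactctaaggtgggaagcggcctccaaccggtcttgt
Trib3 promoter, GRCm38.p6 chr2:152344011-152344310, minus strand: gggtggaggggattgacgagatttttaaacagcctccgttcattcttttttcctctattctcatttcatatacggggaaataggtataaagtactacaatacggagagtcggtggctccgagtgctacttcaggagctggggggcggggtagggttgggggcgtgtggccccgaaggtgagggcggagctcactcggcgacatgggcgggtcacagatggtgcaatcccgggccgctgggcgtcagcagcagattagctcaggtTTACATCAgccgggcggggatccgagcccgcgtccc
Calr promoter, GRCm38.p6 chr8:84846882-84847181, minus strand: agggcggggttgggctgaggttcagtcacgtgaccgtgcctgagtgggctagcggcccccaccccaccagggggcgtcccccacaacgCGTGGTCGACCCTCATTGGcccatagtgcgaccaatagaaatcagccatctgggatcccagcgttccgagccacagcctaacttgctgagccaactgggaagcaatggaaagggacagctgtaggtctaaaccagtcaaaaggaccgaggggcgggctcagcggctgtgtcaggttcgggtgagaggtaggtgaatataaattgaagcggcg

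The Herpud1 window holds ERSE-II 52 bases before the start and a C/EBP-ATF element, on the reverse strand, 112 bases before it. ERSE-II occurs in 0.0365% of the 32851 promoter windows and the C/EBP-ATF letters in 3.97%. The Asns match begins 23 bases before the start, and the Trib3 match, on the reverse strand, begins 14 bases after it. Calr holds the ER stress response element 162 bases before the start, on the reverse strand, and Pdia6 holds it 98 bases before. That element occurs in 0.119% of windows. The unfolded protein response core was found in 0 of the 10 windows and in 0.676% of all. A match is a run of letters in the reference, and binding was not measured.

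Raw signals were mean bead intensities in arbitrary linear units, over a median of 41 beads a probe, with the background still in them. The number of arrays limits the precision. Median raw signals were 62.6 to 70.2 on 4 arrays and 90.9 on microvesicle RNA array 2, so a raw value near 90 is at the median there and above it on the other arrays. Chip 1 held both cell arrays and microvesicle array 1, and chip 2 held microvesicle array 2 and the DNA array. A probe was called detected at a deposited detection p under 0.01. The microvesicle RNA arrays stood apart from each other. Over the 3878 probes that 2 or more RNA arrays detected, their normalized values correlated at 0.58 across probes, against 0.99 for the cell arrays. Of 17 cardiomyocyte marker genes on the array, 13 were detected on each cell array, 7 on microvesicle array 1 and 13 on microvesicle array 2. Their summed raw signal was 10781 to 14690 on the cell arrays and 3240 and 10529 on microvesicle arrays 1 and 2. Of 10 fibroblast markers, 0 were detected on any array, with summed signals of 584 to 608 in cells and 611 to 830 in microvesicle RNA. Of 8 endothelial markers 1 was detected, in cells (504 to 530, and 518 to 720 in microvesicle RNA). Of 7 macrophage and blood markers 1 was detected, on cell array 2 (460 to 481, and 450 to 655).

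The stress response genes differed in where they were seen. Ddit3, Xbp1 and Trib3 were detected on both cell arrays, and the first 2 also on both microvesicle RNA arrays. Asns and Herpud1 were detected on microvesicle array 2 alone. Pdia4 and Pdia6 were not detected on any array. Atf4 was detected on 1 array of each group, and Calr on cell array 1 alone. Of the 13 probes, 4 were detected on cell array 1, where 16.3% of all probes were, and 4 on cell array 2 (14.1% of all). On microvesicle array 1 the count was 2 (7.88% of all), on microvesicle array 2 it was 8 (21.8% of all), and on the DNA array it was 1 (1.33% of all). Probes of 1 gene share a target, so these counts do not rest on 13 separate transcripts. Of the 8 probes on microvesicle array 2, 5 were detected on no other RNA array, which held for 12.3% of all probes. On no array at all were 3 of the 13 detected, against 70.1% of all probes. Counted as genes, 4, 4, 2 and 5 of 9 were detected on cell arrays 1 and 2 and microvesicle arrays 1 and 2, against 20.3%, 17.8%, 10.4% and 26.5% of all named genes. On the DNA array 1 of 9 was detected, against 1.9%.

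**Figure D1:**
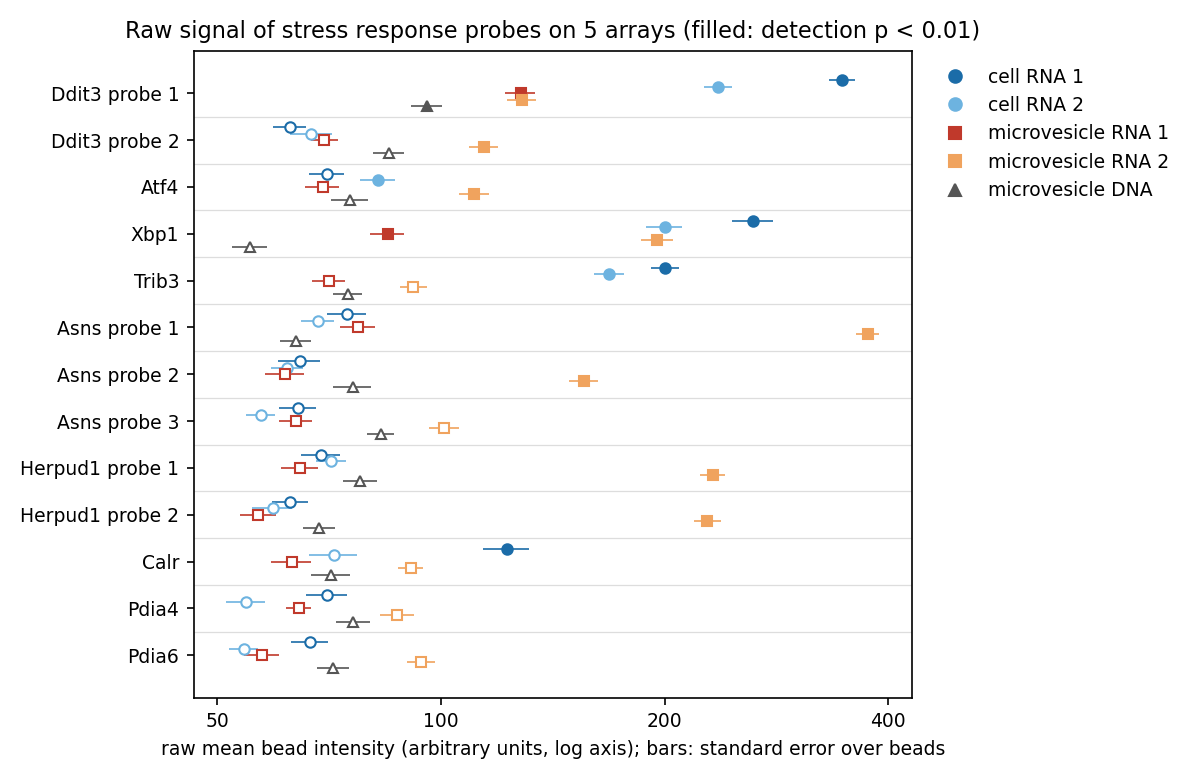
Raw mean bead intensity (log axis, arbitrary units) of the 13 probes on the 5 arrays, with the standard error over beads as bars and filled symbols where the detection p was under 0.01. Ddit3 probe 1, Xbp1 and Trib3 are highest on the cell arrays, while Asns probe 1 (375) and both Herpud1 probes (232 and 228) stand out on microvesicle RNA array 2 alone.

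Of the 13 probes, 4 passed the filter for testing (15.1% of all), 1 each for Ddit3, Atf4, Xbp1 and Trib3. Probes could pass through the cell arrays alone, as Trib3 did, so these 4 do not stand for the 9 genes. Such a pass favoured in advance a lower value in microvesicles. In limma, 0 of the 4 were higher and 0 were lower in microvesicles than in cells at an adjusted p under 0.05, where 0% of all 3878 tested probes were called. At an unadjusted p under 0.05, 1 of the 4 was lower (Trib3), against 23.2% of all tested probes, and 0 were higher, against 5.52%. In 2 of the 4, Xbp1 and Trib3, each microvesicle value was under each cell value, which held for 51.6% of all tested probes, and in 0 did they lie above (14.4% of all). The median log2 difference of the 4 genes was -0.85, close to the -0.84 over all 3123 tested genes. On microvesicle array 1 the medians were -0.36 for the 4 genes and -0.32 for all, and on microvesicle array 2 they were -1.73 and -1.29. In bulk extracts, fewer vesicles or cells carrying a transcript and fewer copies in each cannot be told apart.

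Trib3, which encodes a pseudokinase that ATF4 and CHOP raise and that binds AKT, had the largest difference of the 4. Its raw signal was 200 ± 8.71 (SE over 46 beads) and 169 ± 7.97 on cell arrays 1 and 2, and 70.7 ± 3.58 and 91.8 ± 3.83 on microvesicle arrays 1 and 2. Both microvesicle values were at their array's background, with detection p of 0.089 and 0.202, so Trib3 was seen in the cells and not detected in the vesicles. Among all probes, 4.09% were detected on both cell arrays and neither microvesicle RNA array. The normalized log2 values were 6.89 and 7.07 in cells and 5.08 and 4.50 in microvesicles, a difference of -2.19 ± 0.39 (SE, n = 2 per group, limma adjusted p = 0.0974). Since both microvesicle values were at background, the fold is given as a bound. It sets the cell mean against the mean of the microvesicle floors, each floor being the array's lowest detected value or the Trib3 value, whichever is higher. By it Trib3 was at least 2.43-fold lower in the microvesicle mean. The difference was -1.90 without microvesicle array 2 and -2.48 without microvesicle array 1, and below 0 in every fit run. Median scaling gave -2.54 (adjusted p = 0.0136) and no scaling between arrays -2.46 (adjusted p = 0.0163), which put it past the threshold. Under these scalings 42.6% and 36.5% of all tested probes were called lower too. With a variance trend in limma the difference stayed at -2.19 (adjusted p = 0.0337), and 17.5% of all tested probes were called lower.

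Ddit3 encodes CHOP, a C/EBP family transcription factor tied to cell death under lasting ER stress. The raw signal of its brighter probe was 347 ± 13.6 and 236 ± 10.1 on cell arrays 1 and 2, 128 ± 5.95 and 128 ± 5.81 on microvesicle arrays 1 and 2, and 95.7 ± 4.50 on the DNA array. In raw signal, then, the microvesicle values were under the cell values and nearly matched each other, although the background of microvesicle array 2 was higher. Relative to its own array's median, the probe stood at 5.45 and 3.78 times on the cell arrays and at 2.03 and 1.41 times on microvesicle arrays 1 and 2.

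Ranking within the array changed that order. The probe lay at percentile 95.8 and 95.4 on the cell arrays, 96.8 on microvesicle array 1 and 84.5 on microvesicle array 2. Quantile normalization works on such ranks and gave log2 values of 7.79 and 7.62 in cells and 8.25 and 5.24 in microvesicles, so the groups overlapped. The difference of -0.96 ± 1.17 (n = 2 per group, limma adjusted p = 0.602) was smaller than its error. It changed sign to 0.54 without microvesicle array 2, which is also the comparison within chip 1 (limma adjusted p = 0.0374), and was -2.46 without microvesicle array 1 (adjusted p = 9.8e-05). Among all tested probes, 25% were called higher and 44.7% lower in the former, and 70.1% lower in the latter. With median scaling it was -1.89 (adjusted p = 0.0359) and with no scaling -1.81 (adjusted p = 0.0418). Under quantile normalization the sign for Ddit3 thus turned with the microvesicle array used. With all 4 RNA arrays in the fit, the scaling moved its size and its side of the threshold without turning it. Fits that left out an array were not run under the other scalings. In raw signal microvesicle array 1 (128) was under both cell arrays (347 and 236). The second Ddit3 probe was near background, with raw signals of 62.6 and 66.9 in cells and 69.7 and 114 in microvesicles, and it was detected on microvesicle array 2 alone.

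Xbp1, the transcript that IRE1 splices, was detected on all 4 RNA arrays, as were 5.96% of all probes. Its raw signal was 263 ± 16.4 and 200 ± 11.1 on the cell arrays, 84.8 ± 4.43 on microvesicle array 1, 196 ± 9.63 on microvesicle array 2 and 55.3 ± 3.01 on the DNA array. Microvesicle array 1 was only just past the detection threshold (its detection p-value was 0.00627), while microvesicle array 2 came close to the cell arrays before allowance for its higher background. The normalized log2 values were 7.32 and 7.36 in cells and 6.86 and 6.34 in microvesicles. The groups did not overlap, but the difference of -0.74 ± 0.37 did not pass (n = 2 per group, limma adjusted p = 0.278). It was -0.48 without microvesicle array 2 and -0.998 without microvesicle array 1, with adjusted p-values of 0.0449 and 0.00227, in fits whose spread comes from the cell arrays alone. The probe does not tell the spliced from the unspliced form here, since its position in the transcript was not used.

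Atf4 encodes the transcription factor at the centre of the integrated stress response, which is controlled mainly through translation. Its raw signal was 70.2 ± 3.86 and 82.2 ± 4.48 on the cell arrays, 69.3 ± 3.71 and 111 ± 5.19 on microvesicle arrays 1 and 2, and 75.5 ± 4.39 on the DNA array. It was detected on cell array 2 and microvesicle array 2, with detection p-values of 0.00251 and 0.00752, and not on the other array of either group. The normalized log2 values were 4.74 and 5.52 in cells and 4.89 and 4.90 in microvesicles, so both vesicle values lay between the cell values. The difference was -0.24 ± 0.43 (n = 2 per group, limma adjusted p = 0.732), and it turned to 0.16 without cell array 2 and to 0.0099 with no scaling between arrays.

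**Figure D2:**
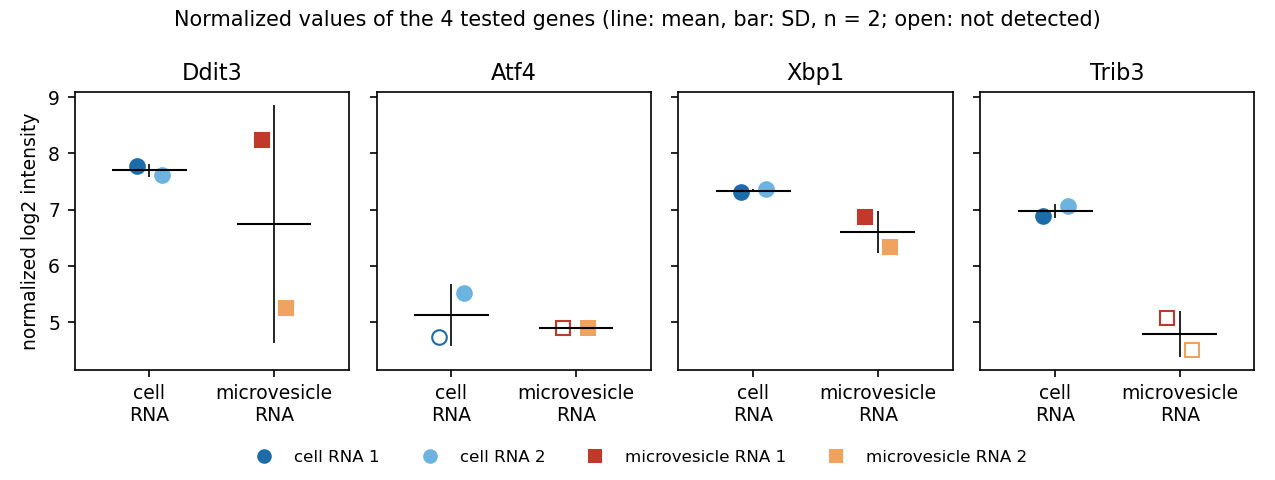
Normalized log2 intensity of the 4 tested genes on the cell and microvesicle RNA arrays, with group means as lines, SD as bars (n = 2) and open symbols where the probe was not detected. The microvesicle values of Ddit3 (8.25 and 5.24) lie on either side of the cell values, those of Trib3 (5.08 and 4.50) lie below.

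**Figure D3:**
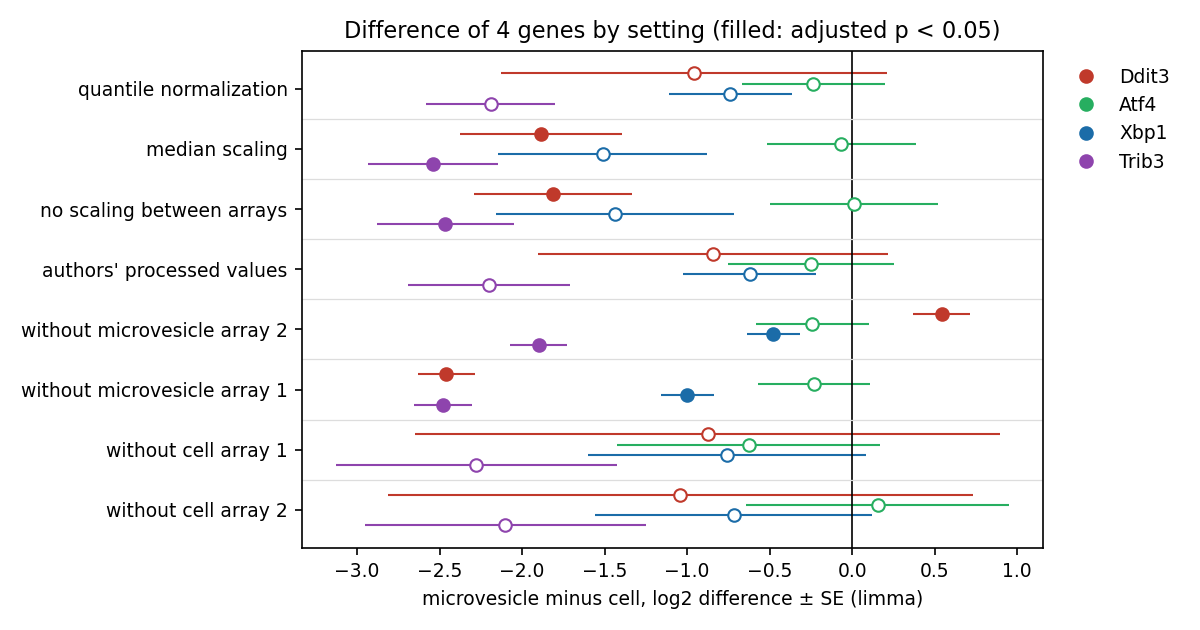
Microvesicle minus cell log2 difference ± SE for Ddit3, Atf4, Xbp1 and Trib3 under 8 settings, filled where limma's adjusted p was under 0.05. Trib3 and Xbp1 stay below 0. Ddit3 moves from -2.46 to 0.54 with the microvesicle array left out, and Atf4 from -0.63 to 0.16 with the cell array left out.

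Asns and Herpud1, both targets of the pathway, had another pattern, with signal on microvesicle array 2 and none detected on the cell arrays or on microvesicle array 1. Asns encodes asparagine synthetase, an ATF4 target induced when amino acids are short. Its brightest probe had raw signals of 74.7 ± 4.58 and 68.2 ± 3.56 on the cell arrays, 77.3 ± 4.12 on microvesicle array 1, 375 ± 13.6 on microvesicle array 2 and 63.8 ± 3.11 on the DNA array. The value on microvesicle array 2 was 4.86 times that on microvesicle array 1, where the median of this ratio over all probes was 1.44. The other Asns probes were dimmer, and not both were detected. A second probe was detected there at 156 ± 6.86, against 61.7 to 64.6 on the other 3 RNA arrays. The third was not detected there, at 101 ± 4.79, where its detection p-value was 0.0589.

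Herpud1 encodes an ER membrane protein of the degradation complex and holds both kinds of element in the promoter shown above. Its probes gave raw signals of 232 ± 9.14 and 228 ± 9.63 on microvesicle array 2. On the other 3 RNA arrays they gave 64.6 to 71.2 and 56.7 to 62.7, and on the DNA array 77.8 and 68.6. On microvesicle array 2 each Herpud1 probe was thus far above its own value on microvesicle array 1, by 3.59 and 4.03 times. Neither Herpud1 probe was detected on the DNA array. That array lay on the same chip but held another kind of sample, so the part of the chip was not tested by it.

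Neither gene passed the filter, which asks for a detection p under 0.01 on 2 arrays. At 0.05 both would pass. The brightest Asns probe had a detection p of 0.0313 on cell array 1 and 0.0201 on microvesicle array 1. The Herpud1 probe at 232 had 0.0464 on cell array 2. With that filter 0 of 7 tested member probes were called. In the fit without a filter the brightest Asns probe differed by 2.12 ± 0.67 (limma adjusted p = 0.589) and the Herpud1 probes by 0.86 ± 0.89 and 1.10 ± 0.96 (adjusted p = 0.835 and 0.832). Across the array, 13.1% of all named genes were detected on microvesicle array 2 and on no other RNA array, so 2 of 9 members is not set apart by this count. The part that chip or extract played was not tested.

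Transcripts of the members Calr, Pdia4 and Pdia6, which encode folding proteins of the ER lumen, were detected on 1 array or on none. Calr encodes calreticulin, a calcium-binding chaperone of glycoproteins that is needed for heart development in mice. Its raw signal was 123 ± 8.86 on cell array 1, 71.7 ± 5.42 on cell array 2, 62.9 ± 3.83 and 91.0 ± 3.46 on microvesicle arrays 1 and 2, and 71.2 ± 4.25 on the DNA array. It was detected on cell array 1 alone, so the cell arrays disagreed by more than their bead error. Without a filter it differed by -1.02 ± 0.45 (limma adjusted p = 0.777). Pdia4, a disulphide isomerase that helps proteins to form disulphide bonds, had raw signals of 70.3 and 54.7 in cells, 64.3 and 87.3 in microvesicle RNA and 76.2 on the DNA array. Pdia6, another isomerase of this family, had 66.7 and 54.2 in cells, 57.4 and 94.0 in microvesicle RNA and 71.6 on the DNA array. Neither was distinguishable from background on any array, so these data give no level for them. An undetected probe is not evidence that its transcript was absent.

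On the microvesicle DNA array, 1 of the 13 probes was detected, the brighter Ddit3 probe, with a raw signal of 95.7 and a detection p-value of 0.00501. At this threshold, chance gives 0.13 of 13 probes, and there is no second DNA array. The other 12 probes had raw signals of 55.3 to 85.0 there. The raw signal of the brighter Ddit3 probe was lower on the DNA array than on all 4 RNA arrays. Relative to the array's median it stood at 1.36 times there, close to the 1.41 times on microvesicle RNA array 2. The second Ddit3 probe, not detected on the DNA array, had 85.0 there. On the cell arrays it had 62.6 and 66.9, and on microvesicle RNA arrays 1 and 2 it had 69.7 and 114. The probes that stood out on microvesicle RNA array 2, those of Asns and Herpud1, were between 63.8 and 77.8 on the DNA array, with detection p-values of 0.208 to 0.694.

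The rest of the pathway was described with 5 further lists, 110 genes on the array of 120 listed, of which 39 were tested. In limma 0 of the 39 were called in either direction, 1 was higher and 12 lower at an unadjusted p under 0.05, against 5.8% and 21.3% of all tested genes. The 2 microvesicle values were both under the 2 cell values in 21 genes and above them in 3, against 50.3% and 14.9% of all tested genes. The share below ranged from 1 of 5 in one list to 6 of 7 in another. Some of these genes, such as Derl3, Sil1 and Pdia5, passed the filter through the cell arrays alone, which favoured a position below. The shares of all tested genes came from the same filter.

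ER-associated degradation takes misfolded proteins back to the cytosol. Of 7 tested genes of that list, 6 lay below and 0 above, with a median log2 difference of -1.70, and -1.58 and -1.69 on microvesicle arrays 1 and 2. Derl2, Derl3 and Ube2j2 passed the filter through the cell arrays alone, which favoured a position below. Syvn1, Nploc4 and Faf2, detected on microvesicle array 2 alone among the RNA arrays, were not tested. Vcp, the ATPase that pulls proteins out of the membrane, had log2 values of 12.14 and 12.25 in cells and 10.97 and 9.20 in microvesicles (-2.11 ± 0.74, limma adjusted p = 0.177). Aup1, which recruits a ubiquitin-conjugating enzyme, was at -3.21 ± 0.96 (adjusted p = 0.143), with another probe at 0.80. The former probe was not detected on microvesicle array 2, so its difference has no exact size, and it was at -2.01 on microvesicle array 1. Derl3, of the derlin family of channel proteins, was not detected in microvesicles and was at least 1.73-fold lower in their mean (-1.90 ± 0.36, adjusted p = 0.0974). Its cell mean (6.49) was under the lowest detected value of microvesicle array 1 (6.51), so this bound rests on microvesicle array 2.

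Among 11 tested ER chaperones and oxidoreductases, 6 lay below and 1 above (Calu), with a median of -1.39. Calu was not detected on microvesicle array 1, where its detection p was 0.0388. Its raw signal there (74.3) was under both cell arrays (84.9 and 80.0), so its position above came only after normalization. P4hb, the abundant disulphide isomerase that is also a subunit of prolyl hydroxylase, had values of 10.81 and 10.66 in cells and 10.32 and 7.90 in microvesicles (-1.63 ± 0.96, limma adjusted p = 0.327). Dnajc10, an ER co-chaperone and reductase, was at -1.39 ± 1.18, with values of 9.74 and 6.72 on microvesicle arrays 1 and 2. Its cell values were 9.56 and 9.68. In raw signal Dnajc10 on microvesicle array 1 (263) was under both cell arrays (1157 and 920). Sil1, the exchange factor of the chaperone BiP, was not detected in microvesicles and at least 4.49-fold lower (-2.47 ± 0.76, adjusted p = 0.149), and Pdia5, an isomerase, at least 2.31-fold lower (-1.87 ± 0.39, adjusted p = 0.101). Unlike Pdia4 and Pdia6, the isomerase genes P4hb and Pdia5 were thus detected in the cells.

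Of 9 tested sensors and translation control genes, 4 lay below and 0 above, with a median of -0.85. The eIF2B subunit genes, whose product the phosphorylated eIF2 blocks, included Eif2b2 (-2.42 ± 1.39, limma adjusted p = 0.320) and Eif2b5 (-2.05 ± 1.09, adjusted p = 0.295, with another probe at 0.74). On microvesicle array 1 their log2 differences from the cell mean were -0.61 and -0.66. Neither was detected on microvesicle array 2, so its part of both differences is set by background and has no exact size. Dnajc3, an ER co-chaperone known as an inhibitor of PERK, was at -0.26 ± 0.78. Atf6b, the paralogue of ATF6, was not detected in microvesicles and was at least 1.23-fold lower in their mean (-1.43 ± 0.36, adjusted p = 0.121). The Atf6b cell mean was under the lowest detected value of microvesicle array 1 (6.51), so this bound rests on microvesicle array 2.

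The ATF4 and CHOP targets had 1 of 5 tested genes below and 2 above, with a median of -0.44, and 0.53 and -1.08 on microvesicle arrays 1 and 2. The pro-apoptotic gene Bcl2l11, a CHOP target, had values of 7.96 and 7.96 in cells and 9.07 and 8.18 in microvesicles (0.67 ± 0.46, limma adjusted p = 0.389). Another probe of it was at 0.15 ± 1.17. The raw signal of the former probe was 389 and 289 in cells and 188 and 461 on microvesicle arrays 1 and 2. On microvesicle array 1 it was thus above the cells after quantile normalization and below them in raw signal. Slc7a5, the amino acid transporter gene, was the other gene above and the 1 higher at an unadjusted p under 0.05 (1.53 ± 0.42, limma adjusted p = 0.132), and is named after its values were seen. Its raw signal was 116 and 85.8 in cells and 87.4 and 348 on microvesicle arrays 1 and 2. On microvesicle array 1 Slc7a5 was thus above both cell arrays only after quantile normalization. Ddit4, an inhibitor of mTORC1, was at -0.44 ± 0.58, and Cebpb, a partner of CHOP, at -0.59 ± 0.90. After quantile normalization both lay above the cell mean on microvesicle array 1 (0.19 and 0.53), as Ddit3 did (0.54). In raw signal both were under the cell arrays there. Ddit4 had 95.7 against 229 and 194, and Cebpb 86.0 against 156 and 115. On microvesicle array 2 Ddit4 lay below the cell mean (-1.08), and Cebpb was not detected, so its difference has no exact size. Vldlr, a lipoprotein receptor gene, was not detected in microvesicles and at least 1.20-fold lower in their mean (-1.34 ± 0.35, adjusted p = 0.127). Its cell mean (5.95) was under the lowest detected value of microvesicle array 1 (6.51), so this bound rests on microvesicle array 2.

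Of 7 tested cytosolic tRNA synthetase genes, several of which ATF4 raises, 4 lay below and 0 above, with a median of -1.40. On microvesicle array 1 the median was -0.33 and on microvesicle array 2 -2.56. Gars, for glycine, had values of 11.32 and 10.99 in cells and 11.62 and 9.57 in microvesicles (-0.56 ± 0.84, limma adjusted p = 0.670). In raw signal Gars on microvesicle array 1 (955) was under both cell arrays (3525 and 2165). Vars, for valine, was at -2.39 ± 1.17 (adjusted p = 0.269, with other probes at -0.52 and -2.02) and Sars, for serine, at -2.18 ± 1.66 (adjusted p = 0.425). Sars was at -0.0080 on microvesicle array 1 and was not detected on microvesicle array 2, so its difference has no exact size. Rars, for arginine, was not detected in microvesicles and was at least 1.43-fold lower in their mean (-1.32 ± 0.38, adjusted p = 0.138). Its cell mean (6.21) was under the lowest detected value of microvesicle array 1 (6.51), so this bound rests on microvesicle array 2.

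**Figure D4:**
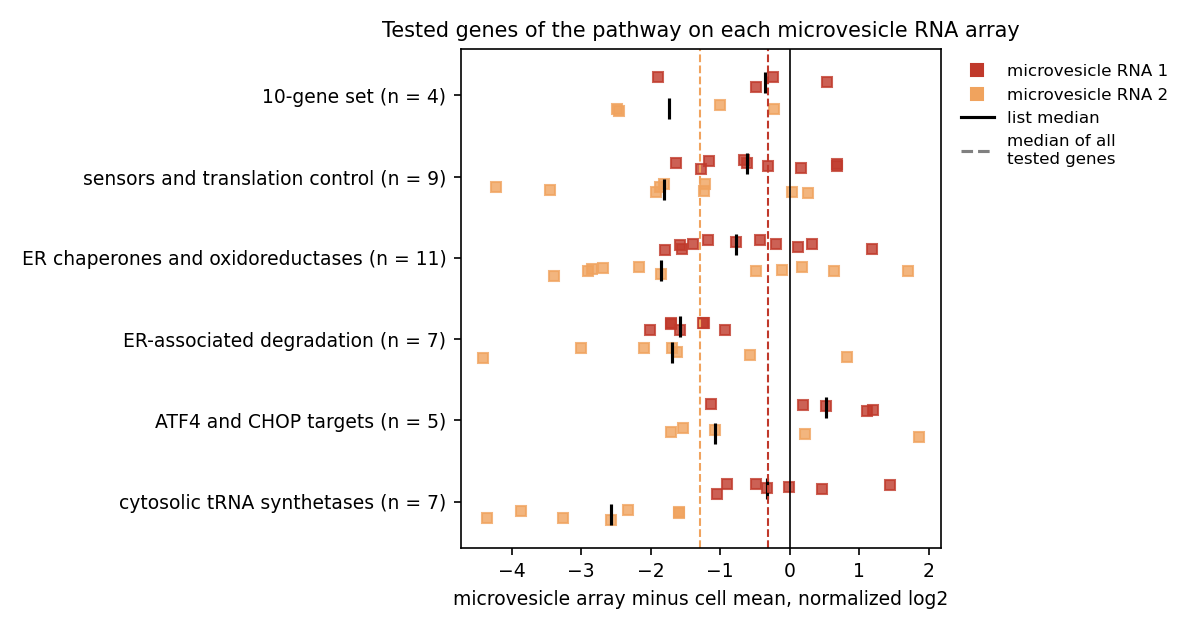
Log2 difference of each tested gene from the cell mean, separately for microvesicle RNA arrays 1 and 2, for the 10-gene set and the 5 other lists, with list medians as black ticks and the medians of all tested genes (-0.32 and -1.29) as dashed lines. The ER-associated degradation genes have medians of -1.58 and -1.69, and the tRNA synthetase genes of -0.33 and -2.56.

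The 2 members detected on all 4 RNA arrays were set against 1307 other genes detected on all 4, by Euclidean distance over the 4 normalized log2 values after centring each probe on its mean. The genes nearest to Ddit3 were Arel1, at a distance of 0.053, and Cox7c, a subunit gene of cytochrome oxidase, at 0.074. Arel1 had values of 8.92 and 8.77 in cells and 9.43 and 6.44 in microvesicles, so its microvesicle values lay on either side of the cells as those of Ddit3 did. Nearest to Xbp1 were Apeh (0.14) and Dnttip1 (0.18). With 4 arrays such nearness is a description of these arrays.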

How the data were processed

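Raw values came from the unnormalized table the authors deposited. Per the file headers it holds each probe's mean bead intensity, the bead standard error, the count of beads and a detection p-value. The processed intensity values that the authors deposited (values below 0 and nearly equal array medians; their method is not stated) served as an alternative. The submitters' processing notes name BeadStudio 3.3. Raw intensities of the 4 RNA arrays were processed with neqc (normexp with the background inferred from detection p-values, offset 16, quantile normalization) in limma 3.58.1, R 4.3.3. The offset compresses differences of dim probes, and quantile normalization gives every array 1 distribution although the arrays detected 2024 to 5605 probes. Probes with a detection p under 0.01 on 2 or more RNA arrays entered limma's moderated test (lmFit, eBayes; two-sided), and p-values were adjusted by Benjamini-Hochberg over all 3878 tested probes and a threshold of 0.05. The test was checked on simulated data in which all 4 RNA arrays had the same spread. It recovered the changed probes at the spread of the cell arrays and few of them at that of the microvesicle arrays. In the data only the microvesicle arrays spread widely, so neither setting matches them. A count of 0 calls does not show that levels were alike.

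Gene symbols came from the platform annotation, which gives 1 symbol for 23978 probes and none for 1719. List members without a match were sought through RefSeq synonyms (GRCm38.p6). A gene was represented by its tested probe of highest mean. Named genes were the members and, from each further list, the 3 highest in the cells and that with the smallest p. For each member detected on all 4 RNA arrays, the 2 nearest genes were named. Members and lists were chosen with earlier results of these data known.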

Additional observations from a re-analysis of the deposited data

How the results depend on the processing

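How many probes were called changed with several settings, from 0 in the reported fit. Of all probes, 179 were called with no filter, 1658 with median scaling, 1421 with no normalization between arrays, 687 with a variance trend and 2703 with chip as a block. Of the 4 tested member probes, these gave 2 with median scaling and 2 with no normalization (Ddit3 and Trib3, lower), 1 with a variance trend (Trib3) and 3 with chip as a block (Trib3 and Xbp1 lower, Ddit3 higher at 0.54), where 25% of all tested probes were called higher and 44.7% lower. Leaving out 1 array gave 0 to 3391 probes in all and 0 to 3 member probes, the calls arising without microvesicle array 1 or 2, where the spread comes from the cell arrays alone and the lone microvesicle array is assumed to vary like them. Among the RNA arrays only microvesicle array 2 lay on chip 2, so chip as a block gave the fit without microvesicle array 2. Its calls have the same limit and do not count as a separate result. The cause of the changes in calls was otherwise not tested. Ddit3 ranged from -2.46 to 0.54 on leaving out 1 array, Atf4 from -0.63 to 0.16, and Atf4 was at 0.0099 with no normalization. Trib3 (-2.54 to -1.37) and Xbp1 (-1.51 to -0.48) kept their direction in all alternatives that gave a value. Median scaling moved the median of all tested probes from -0.87 to -1.28. The median of the tested members lay between -1.73 and -0.24. Only 1 probe of each tested member passed the filter, so averaging probes changed nothing, and Atf4 and Trib3 had no value with detection required on all 4 RNA arrays.

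With replicate number as a block, 0 probes and 0 members were called (Trib3 adjusted p = 0.314 in limma). Same-numbered deviations correlated at -0.24 across probes, so the numbers were not taken to pair the arrays, and the crossed pairing, added after seeing the data, also gave 0 probes and 0 members. With a detection threshold of 0.05, detected member probes numbered 5, 6, 3 and 8 on cell arrays 1 and 2 and microvesicle arrays 1 and 2, and 1 on the DNA array.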

Other observations

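Of the 110 other pathway genes on the array, 20 were detected on microvesicle RNA array 2 and on no other RNA array (18.2%, against 13.1% of all named genes). The genes named here were picked after their values were seen. Among the ATF4 and CHOP targets these were 7 of 32. Eif4ebp1, an inhibitor of cap-dependent translation, had a raw signal of 932 on microvesicle array 2 and 52.9 to 66.4 on the other RNA arrays. Trib2, a relative of Trib3, had 555 there and 57.6 to 63.2 elsewhere, while Trib3 itself was at background in both vesicle arrays. Psat1 of serine synthesis had 253, the transcription factor gene Atf5 239 and Cebpg, a dimer partner of ATF4, 229. Among ER chaperones and oxidoreductases, 5 of 21 genes showed this pattern, including Uggt1, the folding sensor of glycoproteins (162), and Pdia3, an isomerase that works with calreticulin (129).

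In the degradation machinery the ubiquitin ligase gene Syvn1 (200), whose complex HERPUD1 joins, Nploc4 (227) and Faf2 (290) were seen on microvesicle array 2 alone among the RNA arrays, as Herpud1 was. Both probes of Farsb, a tRNA synthetase subunit gene, were detected there too (492 and 347). The raw signal of these 3 degradation genes was 70.7 to 71.5 on the DNA array of the same chip.

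Of the 13 member probes and the 186 probes of the 5 other lists, 3 were detected on the DNA array, where 1.33% of all probes were. The brightest of the 3 was a probe of Tnfrsf10b, the gene of a death receptor that CHOP raises in human cells. It had 356 ± 11.2 (SE over beads) there, against 271 ± 20.2 on microvesicle RNA array 2 and 63.5 to 74.7 on the other 3 RNA arrays. The gene has 5 probes, and this was the only 1 of them detected on the DNA array.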
